A study of Homo sapiens with 6 samples.

Results

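The genes described here are 60 metalloproteinase genes, 22 MMP, 22 ADAM and 16 ADAMTS genes, of the 20503 genes named on the array. A gene was taken when the transcript accession of a probe led to a symbol made of MMP, ADAM or ADAMTS and a number. ADAMTS2, ADAMTS3 and ADAMTS14 were left out by the same rule. The 60 genes had 82 probes on the array, 1 probe for 43 genes and several for the other 17. No measured value entered this choice.

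Expression was measured with 1-colour Agilent SurePrint G3 arrays in A673, a cell line from Ewing sarcoma, a bone and soft tissue tumour of children and young adults driven by the EWS/FLI1 fusion protein. All cells carried the tetracycline repressor (A673/TR). The 3 control arrays were A673/TR/empty cells, which hold the lentiviral vector without a cDNA, and the 3 LOX-PP arrays were A673/TR/LOX-PP cells, which hold the propeptide part of lysyl oxidase behind the inducible promoter. The labels give doxycycline at 1 µM for 72 h for all 6 samples. The methods do not settle if the empty-vector cells were given it, nor whether the cells on the arrays were 1 clone or a mixed population. The comparison asks which transcripts differ when the propeptide is induced, and a difference between the lines that does not come from the propeptide cannot be told apart from it. In such cultures fewer cells of a type and less RNA per cell cannot be told apart either. The 3 arrays of each line come from independent experiments.

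Matrix metalloproteinases (MMPs) are zinc enzymes that cut collagens, gelatin, proteoglycans and other matrix proteins, mostly after secretion as inactive precursors. ADAMs are membrane proteins that cut growth factors and receptors from the cell surface (shedding), although some of them have lost the active site and act in adhesion. ADAMTS proteins are secreted relatives that bind matrix and cut proteoglycans, procollagens or von Willebrand factor, and tissue inhibitors (TIMPs) and A2M hold many of these enzymes in check.

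Values are log2 signals of a probe after the 75th percentile of its array was subtracted, so 0 is the 75th percentile and 1 unit is a factor of 2. The median probe was 0.13 higher on the LOX-PP arrays than on the control arrays (-0.03 after quantile normalization), and every difference below is LOX-PP minus control relative to that median. A probe was tested when 3 or more of the 6 arrays had it well above background, and it was called higher or lower when its adjusted p from limma was under 0.05. Per array, 56.9% to 74.8% of gene spots stood well above background and none was saturated. Before subtraction the 75th percentile was 12.6 to 12.9 on control arrays and 11.5, 12.6 and 11.7 on LOX-PP replicates 1, 2 and 3. The net signal of negative control spots ran from 64.4 to 575 over the 6 arrays. Replicate 1 of LOX-PP was alone on slide 2, scanned on another date, and the other 5 arrays shared slide 1. The LOX probe, which could check the labels, measured -0.09, 0.36 and 0.11 on control arrays against -0.12, -0.68 and -1.29 on LOX-PP arrays. It was thus not higher on the arrays labelled LOX-PP, and its relative difference was -0.95 (SE 0.33, adjusted p = 0.217). The sources used here do not say whether this probe lies inside the propeptide cDNA, so each direction below rests on the labels alone.

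The main changes among the proteases were a fall of MMP10, MMP9 and ADAM19 and a rise of ADAM23 and ADAMTS13 on the LOX-PP arrays. The fall of ADAM19 was the least stable of these calls. It was lost whichever single array was left out, and a dimmer ADAM19 probe lay at 0.10. MMP10, a stromelysin that cuts proteoglycans and activates other MMPs, fell 15.6-fold, and MMP9, the gelatinase that cuts denatured collagen and basement membrane collagen, fell 3.36-fold. ADAM23, an adhesion protein of neural tissue without protease activity, rose by both its probes. The brighter one gave 4.73-fold, a size that depended on the background treatment. ADAMTS13, the protease that trims von Willebrand factor, rose 5.65-fold by one of its probes.

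Of the 82 probes, 49 for 36 genes were tested and 6 for 5 genes were called. These 6 are 12.2% of the tested probes, where 5.66% of all 32647 tested probes were called (1849). The latter include probes without a gene name. Of all named genes, each by its brightest tested probe, 7.07% were called (1174 of 16601). One of the 6, an ADAM23 probe, passed the filter through the LOX-PP arrays alone, and without it 5 of 48 probes (10.4%) were called. In each direction 3 of the 49 were called, against 3.31% of all tested probes called higher (1080) and 2.36% called lower (769). After quantile normalization the split over all probes was 908 higher and 983 lower, and that of the proteases stayed at 3 and 3. Without replicate 1 of LOX-PP, the array on its own slide, the calls of MMP10, MMP9, ADAM23 and ADAMTS13 held and that of ADAM19 was lost (adjusted p = 0.0528). The 49 probes were spread evenly around the median of the array, with 24 above and 25 below it and a median relative difference of -0.02. Their median absolute difference was 0.47, against 0.38 over all tested probes. The control and LOX-PP arrays did not overlap for 13 of the 49 probes (26.5%), a share no higher than the 29.5% seen over all tested probes. The proteases as a family thus did not lie to either side, and the results below concern single genes.

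Sequences before the start site are shown for MMP10 and ADAM19, which fell, and for ADAM23 and ADAMTS13, which rose. MMP7 is shown as well, a gene of the same run of MMP genes as MMP10 whose probe was near background in both lines. RefSeq (GRCh38.p14) gave a promoter for 32 of the 60 genes and none for MMP9, which also fell. The 200 bases that end at the base before the start site are printed for MMP10 (chr11:102780629-102780828, minus strand), MMP7 (chr11:102530748-102530947, minus strand), ADAM19 (chr5:157575776-157575975, minus strand), ADAM23 (chr2:206443332-206443531, plus strand) and ADAMTS13 (chr9:133422167-133422366, plus strand), each 5′ to 3′ on the gene's strand. Capitals mark the letters TGANTCA (the AP-1 element, bound by FOS and JUN proteins), TATAAA (the TATA box), GGGCGG (the GC box, bound by SP proteins) and GGAAGT (an ETS element), on either strand, and none of these marks overlaps another here.
MMP10: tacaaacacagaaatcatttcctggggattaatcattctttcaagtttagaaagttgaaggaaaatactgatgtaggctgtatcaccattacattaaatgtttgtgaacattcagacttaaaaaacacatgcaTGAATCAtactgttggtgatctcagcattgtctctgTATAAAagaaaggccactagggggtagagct
MMP7: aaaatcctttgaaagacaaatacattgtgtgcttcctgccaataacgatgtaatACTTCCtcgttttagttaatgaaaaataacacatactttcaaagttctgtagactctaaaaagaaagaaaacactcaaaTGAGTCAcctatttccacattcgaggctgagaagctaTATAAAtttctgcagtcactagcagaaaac
ADAM19: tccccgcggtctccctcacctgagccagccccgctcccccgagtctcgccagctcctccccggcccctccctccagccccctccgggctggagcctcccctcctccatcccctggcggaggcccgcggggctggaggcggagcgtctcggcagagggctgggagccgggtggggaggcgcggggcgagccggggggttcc
ADAM23: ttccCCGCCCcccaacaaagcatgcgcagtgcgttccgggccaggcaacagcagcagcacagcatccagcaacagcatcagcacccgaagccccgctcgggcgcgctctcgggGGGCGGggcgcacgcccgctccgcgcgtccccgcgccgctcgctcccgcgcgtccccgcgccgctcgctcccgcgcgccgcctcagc
ADAMTS13: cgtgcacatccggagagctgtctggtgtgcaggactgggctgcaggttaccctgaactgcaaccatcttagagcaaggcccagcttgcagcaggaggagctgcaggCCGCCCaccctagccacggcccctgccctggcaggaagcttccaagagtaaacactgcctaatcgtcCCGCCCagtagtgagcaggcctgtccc

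The MMP10 and MMP7 sequences share an AP-1 element whose first base lies 67 bases before the start site, and each has a TATA box, 31 bases before the start in MMP10 and 30 in MMP7. MMP7 also has an ETS element 146 bases before the start. Of the genes that lie between MMP7 and MMP10, MMP20 has an AP-1 element 112 bases before the start. MMP27 and MMP8 have none from 250 bases before to 50 after it. The ADAM19 sequence holds none of the 4 motifs. The ADAM23 and ADAMTS13 sequences hold no AP-1 element, TATA box or ETS element, and each has a pair of GC boxes, in ADAM23 at 196 and 87 bases and in ADAMTS13 at 94 and 27 bases before the start. Over windows of 250 bases before to 50 after the start, the AP-1 letters stood in 7.71% of 35116 promoters, the TATA box in 11.5%, the GC box in 45.0% and the ETS element in 22.8%. Of the 33 promoters of these genes (1 gene has several starts), 4 held the AP-1 letters, 8 the TATA box, 19 the GC box and 4 the ETS element. MMP10 and ADAM19, the genes that fell and had a promoter, do not share a motif here, and MMP9 could not be read. These matches describe letters, since no binding was measured.

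The stromelysins MMP3, MMP10 and MMP11 were each tested by 1 probe. The MMP10 probe measured 0.93, 1.37 and 1.19 on control arrays against -2.82, -3.18 and -2.02 on LOX-PP arrays. All 3 LOX-PP arrays lay far below all 3 control arrays, and all 6 arrays were well above background. The relative difference was -3.96 (SE 0.34, 95% confidence interval -4.76 to -3.17, adjusted p = 0.0022). This was the lowest value among the 49 tested probes.

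MMP3, the stromelysin most alike to MMP10 in its substrates, measured -2.06, -1.52 and -1.20 on control arrays against -0.46, -0.79 and -0.03 on LOX-PP arrays. The LOX-PP arrays lay above the control arrays without overlap, opposite to MMP10, but the relative difference of 1.04 (95% confidence interval 0.29 to 1.79) was not called (adjusted p = 0.0869).

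The collagenases open fibrillar collagen, and of MMP1, MMP8 and MMP13 the MMP1 probe alone was tested. MMP1 measured 5.67, 6.01 and 6.21 on control arrays against 6.02, 4.85 and 5.99 on LOX-PP arrays. It was high on every array and the groups overlapped, with replicate 2 of LOX-PP lowest. Its relative difference was -0.47 (95% confidence interval -1.34 to 0.40, adjusted p = 0.641), an interval that still holds a fall by more than 1 log2 unit.

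MMP10, MMP1 and MMP3 are neighbours in a run of 9 MMP genes on chromosome 11, in the order MMP7, MMP20, MMP27, MMP8, MMP10, MMP1, MMP3, MMP12 and MMP13. MMP12, the macrophage elastase, is added here after its values were seen. Its probe measured -3.34, -2.47 and -4.04 on control arrays against -6.00, -5.80 and -6.50 on LOX-PP arrays. It was well above background on 2 control arrays and on no LOX-PP array, and it was therefore not among the tested probes. How much lower the signal was depends on the floor set under the LOX-PP arrays. The floor was each array's lowest signal well above background, or the probe's own signal where that was higher. With it, and before the shift of all probes was taken off, the signal was 4.89-fold lower. With 1 common floor under all arrays it was 2.88-fold lower. The control mean took all 3 arrays although 2 were well above background, so these values are not strict lower limits. Without the filter on dim probes its adjusted p was 0.0617. The probes of MMP7, MMP20, MMP27, MMP8 and MMP13 were well above background on at most 1 of the 6 arrays. Within this run the 3 tested genes thus lay at -3.96, -0.47 and 1.04, and over all 1240 named tested probes of chromosome 11 the median was -0.27.

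**Figure D1:**
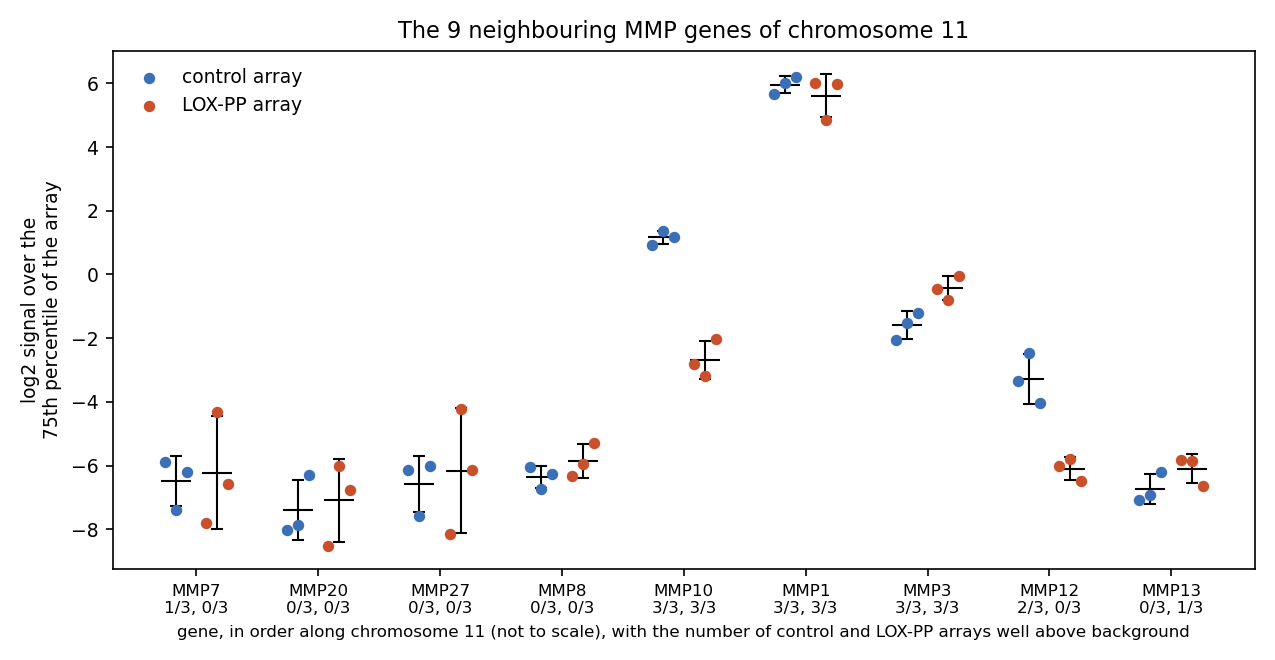
Log2 signal over the array's 75th percentile (y axis) of the 9 neighbouring MMP genes of chromosome 11 in their order (x axis, not to scale); points are single arrays (blue control, orange LOX-PP), bars are mean and SD, n = 3, and the fractions under each name give the control and LOX-PP arrays well above background. MMP10 dropped from between 0.93 and 1.37 to between -3.18 and -2.02, while MMP1 overlapped between the groups and MMP3 was higher on the LOX-PP arrays without being called.

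The gelatinases MMP2 and MMP9 both cut denatured collagen and differed in their values. MMP9 measured 2.24, 2.34 and 2.26 on control arrays against 0.61, 0.55 and 0.82 on LOX-PP arrays. The groups lay far apart for their spread (SD 0.05 and 0.14). The relative difference was -1.75 (SE 0.20, 95% confidence interval -2.22 to -1.28, adjusted p = 0.0073). Without replicate 1 or replicate 2 of the control arrays the adjusted p was 0.0642 and 0.0554, at relative differences of -1.76 and -1.66, and the alternatives together gave adjusted p-values of 0.0036 to 0.0642.

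MMP2 measured -0.25, 0.26 and -0.11 on control arrays against 0.46, 0.12 and -0.03 on LOX-PP arrays. The groups overlapped, and the relative difference was 0.09 (95% confidence interval -0.50 to 0.67, adjusted p = 0.667). The interval of MMP2 does not reach the fall of MMP9, although the difference between the genes was not tested.

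All 6 membrane-type MMPs, which are anchored at the cell surface, were tested and none of their 7 probes was called by limma. Of the 7, 3 had an unadjusted p under 0.05, as had 6954 of all 32647 tested probes. MMP14, the activator of the MMP2 precursor, measured 0.29, 0.43 and 0.43 on control arrays against -0.09, -0.18 and -0.001 on LOX-PP arrays. Its groups did not overlap, but the relative difference of -0.59 (95% confidence interval -1.06 to -0.13) had an adjusted p of 0.232. MMP16 measured -2.37, -2.50 and -2.59 on control arrays against -2.91, -3.50 and -3.69 on LOX-PP arrays. Its groups were also apart, with a relative difference of -1.01 (adjusted p = 0.113). Without replicate 1 of LOX-PP, the array on a slide of its own, MMP16 passed the threshold at -1.27 (adjusted p = 0.0348), and the alternatives together gave adjusted p-values of 0.0348 to 0.382.

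Of the other membrane-type enzymes, MMP15 lay at 0.11, MMP24 at -0.14 and MMP17 at 0.58, whose LOX-PP replicate 1 was far above the other arrays at 3.09 against 0.78 to 1.52. MMP25, known from neutrophils, had a brighter probe at -0.09 (adjusted p = 0.960) and a dimmer one at 0.87 (95% confidence interval 0.19 to 1.56, adjusted p = 0.103) whose groups did not overlap, so its probes disagreed in sign. Of the remaining MMPs, MMP19 lay at 0.69 by its brighter probe and -0.11 by the other, MMP21 at 0.82 (adjusted p = 0.188) and MMP28, also called epilysin, at -0.02. No probe of these was called. The matrilysins MMP7 and MMP26, small enzymes without the C-terminal domain of other MMPs, had no tested probe.

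**Figure D2:**
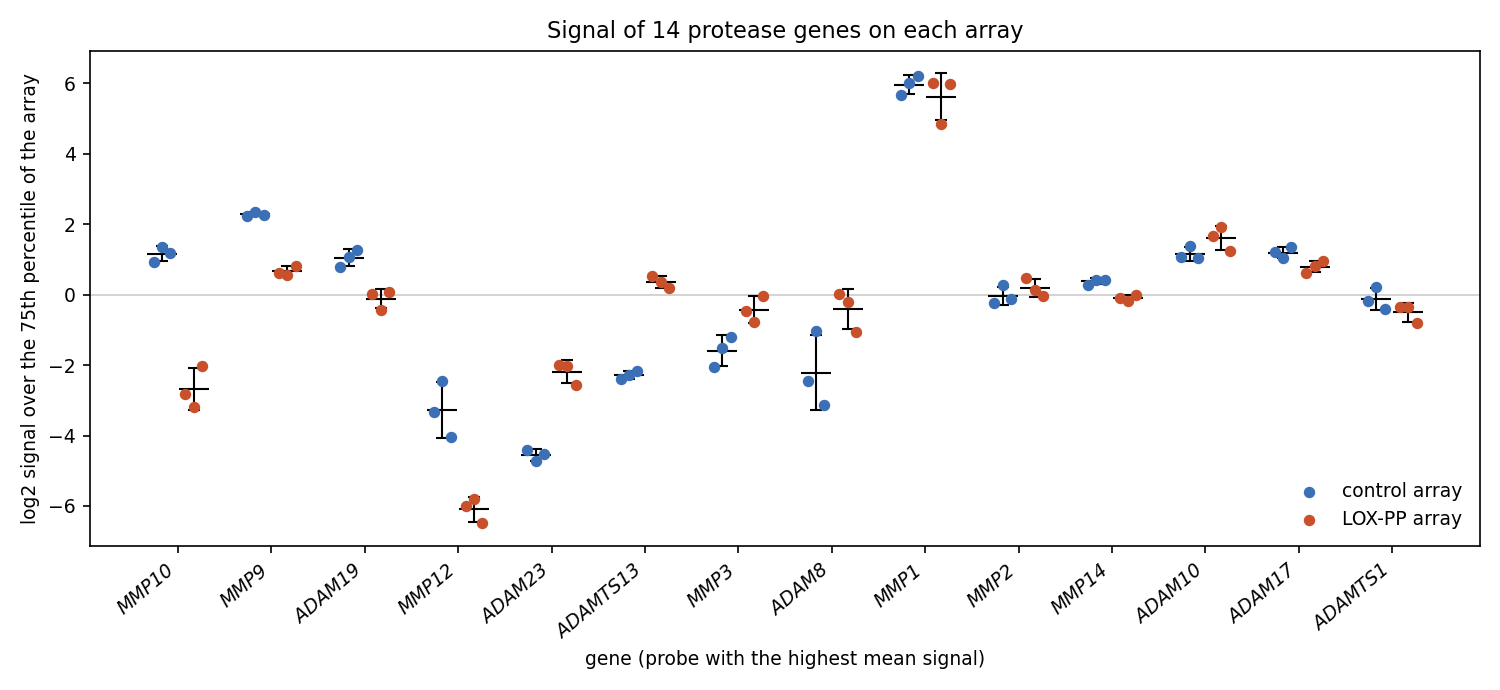
Log2 signal over the array's 75th percentile (y axis) of 14 protease genes, each by its probe of highest mean signal (x axis); points are single arrays (blue control, orange LOX-PP), and bars are mean and SD, n = 3. The 2 groups are apart for MMP10, MMP9, ADAM19, MMP12, ADAM23, ADAMTS13, MMP3, MMP14 and ADAM17 and overlap for ADAM8, MMP1, MMP2, ADAM10 and ADAMTS1, and MMP12 was not tested.

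Among the ADAMs, ADAM11, ADAM22 and ADAM23 were grouped here as members without an active protease site, and all 3 were tested. They bind LGI proteins or integrins at the neural cell surface. The group need not hold every ADAM without such a site. ADAM23 had 2 probes and both were called higher, numbered 1 and 2 here only as names. Probe 1 measured -4.41, -4.73 and -4.52 on control arrays against -1.99, -2.01 and -2.56 on LOX-PP arrays, with 2 of the 3 control arrays well above background. Its relative difference was 2.24 (95% confidence interval 1.66 to 2.82, adjusted p = 0.0039). Probe 2 measured -5.95, -6.24 and -6.01 on control arrays, where it was never well above background, against -0.60, -1.45 and -1.89 on LOX-PP arrays. For both probes the LOX-PP arrays lay above the control arrays by more than the spread within either line.

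ADAM23 probe 2 was called (adjusted p = 0.0013), but its control signal was background and the size of its rise depends on the floor. Before the shift of all probes was taken off, the LOX-PP signal was at least 23.2-fold higher with each array's own floor as for MMP12, and at least 11.3-fold higher with 1 common floor. With normexp background correction, which draws low signals together, the relative difference was 3.00 on the log2 scale. This was the 1 probe of the 49 that passed the filter with no control array above background, so it entered the test through the LOX-PP arrays where it was high. The probes agreed in direction. Probe 1 gave 4.73-fold, a relative difference of 2.24 that became 1.53 with normexp, so its size depends on the background treatment as well. In the same set, ADAM22 lay at -0.21 (95% confidence interval -0.68 to 0.27) and the 2 probes of ADAM11 lay at 0.42 and 0.26, none of them called.

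The sheddases ADAM10 and ADAM17 cut Notch receptors, cadherins, TNF and ligands of the EGF receptor. ADAM10 measured 1.06, 1.40 and 1.03 on control arrays against 1.66, 1.91 and 1.25 on LOX-PP arrays. ADAM17 measured 1.21, 1.03 and 1.35 on control arrays against 0.63, 0.80 and 0.96 on LOX-PP arrays. The groups overlapped for ADAM10 and were apart, lower on the LOX-PP arrays, for ADAM17. Neither was called, with relative differences of 0.32 (95% confidence interval -0.29 to 0.92, adjusted p = 0.366) for ADAM10 and -0.53 (95% confidence interval -1.03 to -0.02, adjusted p = 0.332) for ADAM17.

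ADAM19, a sheddase known for cutting neuregulins, measured 0.79, 1.07 and 1.27 on control arrays against 0.01, -0.43 and 0.07 on LOX-PP arrays by probe 1. The groups did not overlap, and the relative difference was -1.29 (SE 0.25, 95% confidence interval -1.87 to -0.70, adjusted p = 0.0444). This call was the least stable of the 6. It was lost whichever single array was left out (adjusted p from 0.0528 to 0.188), and its dimmer probe 2 lay at 0.10 (adjusted p = 0.738).

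ADAM8, a sheddase known from leukocytes, spread widely within the lines, at -2.47, -1.04 and -3.14 on control arrays against 0.004, -0.20 and -1.06 on LOX-PP arrays. The highest control array lay just above the lowest LOX-PP array. The relative difference was 1.67 (95% confidence interval 0.33 to 3.00) and it was not called (adjusted p = 0.127). ADAM15, which is found in cell junctions, lay at -0.44 (adjusted p = 0.651), and ADAM32, expressed in testis, at -0.55 (adjusted p = 0.512). Of the 10 testis and other ADAMs, 1 had a tested probe.

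Of the ADAMTS genes, ADAMTS13 had a called probe and the other 7 tested genes had none. Probe 1 of ADAMTS13 measured -2.39, -2.28 and -2.16 on control arrays against 0.52, 0.34 and 0.18 on LOX-PP arrays. The lines were separated by far more than their spread (SD 0.11 and 0.17), and the relative difference was 2.50 (SE 0.21, 95% confidence interval 2.00 to 2.99, adjusted p = 0.0016). Probe 2 measured -4.75, -5.09 and -4.42 on control arrays against -4.504, -2.818 and -4.001 on LOX-PP arrays. These groups overlapped, and the difference of 0.85 for probe 2 was not called (adjusted p = 0.265). The transcript that probe 1 detects thus rose, and for probe 2 the data leave the size between -0.21 and 1.91.

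ADAMTS1 and ADAMTS4 cut the proteoglycans aggrecan and versican. ADAMTS1 measured -0.19, 0.23 and -0.41 on control arrays against -0.34, -0.35 and -0.81 on LOX-PP arrays by its brighter probe. ADAMTS4 measured 3.82, 4.28 and 3.76 on control arrays against 4.76, 4.70 and 4.20 on LOX-PP arrays. Both overlapped between the lines, with relative differences of -0.50 (adjusted p = 0.460) and 0.47 (adjusted p = 0.250). ADAMTS7 and ADAMTS12, which cut COMP, a cartilage matrix protein, lay at 0.25 and 0.35, neither called. Dimmer tested probes of ADAMTS7 lay at -0.37 and 0.49, also not called, so its probes disagreed in sign. ADAMTS10, a fibrillin-binding member, lay at -0.04, ADAMTS16 at -0.49 and ADAMTS19 at 0.19, again not called. The signs of ADAMTS7, ADAMTS10, ADAMTS19 and MMP28 turned under quantile normalization, so no direction is given for them.

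**Figure D3:**
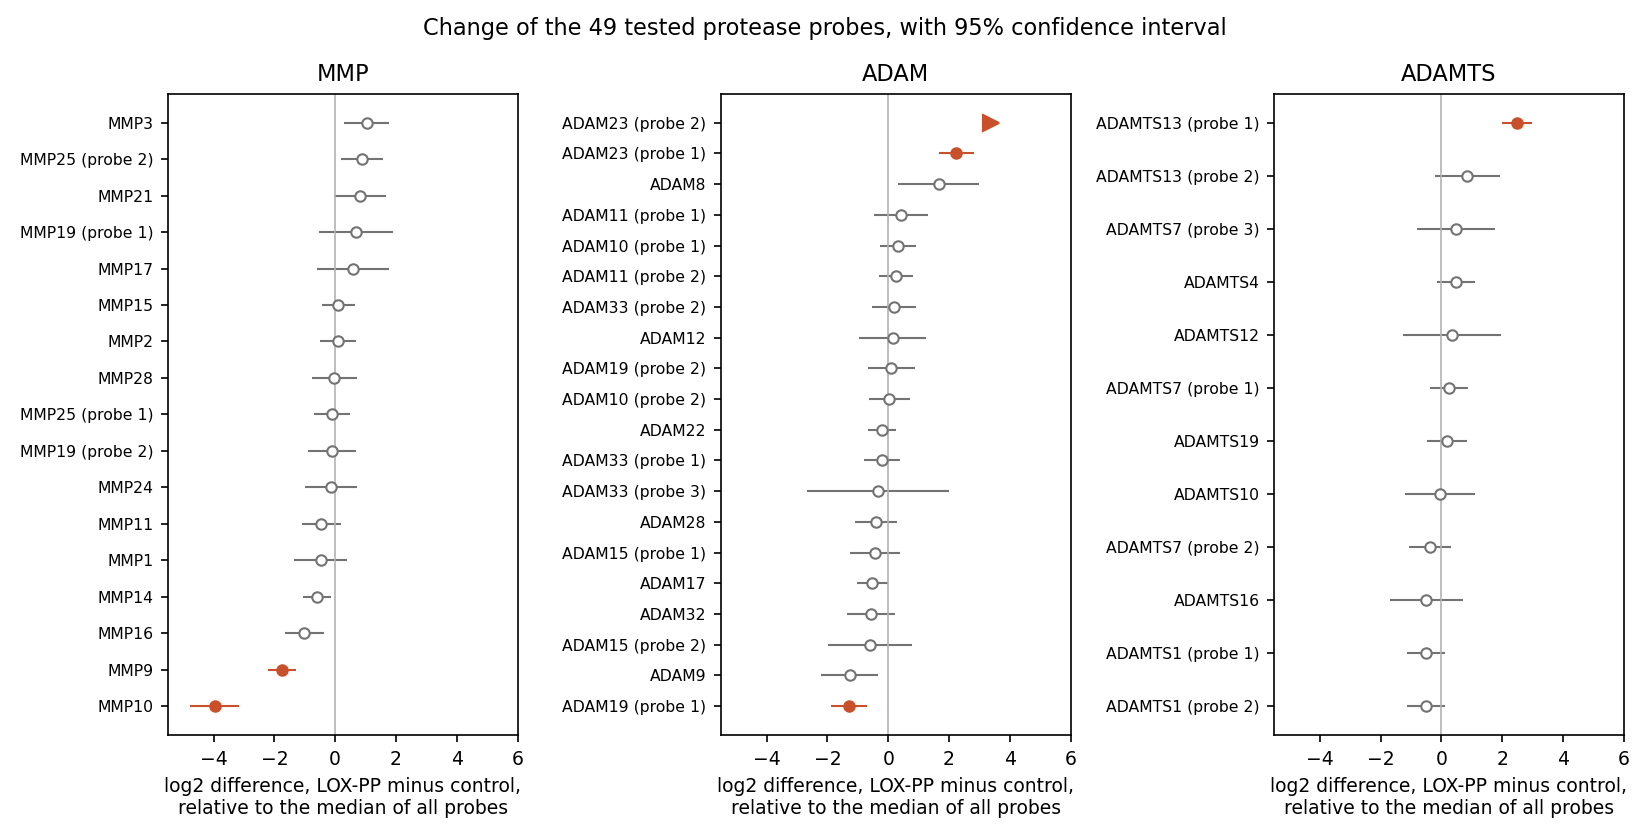
Log2 difference LOX-PP minus control relative to the median of all tested probes (x axis) of the 49 tested probes, by family, with the 95% confidence interval; filled orange points were called (adjusted p under 0.05), open grey ones were not, and probes of 1 gene are numbered. The triangle is the bound of ADAM23 probe 2 with a common floor, since no control array was above background. The 5 called probes with a measured value run from -3.96 (MMP10) to 2.50 (ADAMTS13), and the 43 not called lie between -1.28 and 1.67.

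The remaining genes were mostly near background. Of the 60 genes, 26 had a probe well above background on all 6 arrays, 10 on 3 to 5, 12 on 1 or 2, and 12 on none. ADAMTS5, ADAMTS8, ADAMTS18, ADAMTS20, MMP8, MMP20, MMP27, ADAM2, ADAM5, ADAM6, ADAM18 and ADAM30 made up the last set. For the 24 genes without a tested probe the arrays set no more than an upper limit near background in at least 4 of the 6 cultures. Across the untested probes, MMP12 was the 1 case in which the lines did not overlap.

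Position on a chromosome was looked at once more for the members of chromosome 8. Their 4 tested probes (ADAM9, ADAM28, ADAM32 and MMP16, named together after their values were seen) all lay below the median, between -1.28 and -0.41. None was called by limma, and 2 had an unadjusted p under 0.05, as had 6954 of all 32647 tested probes. Over all 720 named tested probes of chromosome 8, 523 lay below the median of the array and the chromosome's own median was -0.39, so lower values were not particular to the proteases there.

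Inhibitors, activators, partners and substrates of the proteases were read from 5 lists of 52 genes, each gene by its tested probe of highest mean signal. Of these, 51 were on the array and 44 were tested. Among the 44, 5 were called higher and 4 lower (20.5%), where 7.07% of all named genes were called (1174 of 16601). The lists were chosen with earlier results of these data known, so the gap between these shares tests nothing about the lists. Fewer list genes were called with no filter and with the methods' t-test, as given at the end. The median over the 44 was -0.10. The 9 genes were spread over all 5 lists, in both directions.

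Of the 7 inhibitors, A2M was called and the other 6 were not. A2M, a plasma protein that traps proteases of every class, measured -4.88, -5.18 and -4.45 on control arrays against -1.60, -1.01 and -2.23 on LOX-PP arrays. It rose 8.55-fold in the main fit (adjusted p = 0.0052). The size of this rise is loose, since the relative difference of A2M ran from 2.15 to 3.40 on the log2 scale over the settings tried. TIMP1, the secreted inhibitor that binds the MMP9 precursor, measured 4.78, 4.64 and 4.90 on control arrays against 5.53, 5.12 and 5.53 on LOX-PP arrays. TIMP1 did not overlap between the lines, but its difference of 0.49 was not called (adjusted p = 0.172). TIMP2, which also takes part in MMP2 activation, lay at -0.26 (adjusted p = 0.760), TIMP3, a matrix-bound inhibitor of ADAM17 and ADAMTS enzymes, at -0.91 (adjusted p = 0.196) and RECK, a membrane-anchored inhibitor, at -0.49 (adjusted p = 0.521).

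Among 8 tested activators, PCSK6, a furin-like convertase that cuts precursors, rose by both its probes (3.13 and 2.50, adjusted p = 0.0118 and 0.0050). PLAU, the urokinase that generates plasmin, fell by 1.32 (adjusted p = 0.0431) by its brighter probe. The dimmer PLAU probe lay at -1.01 and was not called (adjusted p = 0.0770). The 10 tested ADAM partners held 2 called genes, TSPAN10 at 2.52 (adjusted p = 0.0073) and TSPAN33 at 1.90 (adjusted p = 0.0116), tetraspanins that travel with ADAM10. A dimmer probe of TSPAN10 lay at 0.49 and was not called.

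Among 9 tested shed ligands and receptors, AREG, a ligand of the EGF receptor released by ADAM17, rose (adjusted p = 0.0441). It was well above background on 1 control array and on all 3 LOX-PP arrays, so the size is loose, 2.18 in the fit and 1.15 to 2.68 over the settings tried. HBEGF, another such ligand, measured 0.62, 0.63 and 0.79 on control arrays against -0.65, -0.09 and -0.48 on LOX-PP arrays, and fell by 1.21 (adjusted p = 0.0442). NRG1, the neuregulin that ADAM19 is known to cut, measured 1.73, 1.70 and 1.57 on control arrays against -0.19, 0.78 and 0.47 on LOX-PP arrays. Both NRG1 probes fell, by 1.44 and 1.45 (adjusted p = 0.0490 and 0.0277). These 3 ligands changed at the RNA level in different directions. Of 10 tested ADAMTS substrates and ADAMTS-like proteins, VCAN, the proteoglycan versican, fell by 1.98 (adjusted p = 0.0388). The 3 left-out genes ADAMTS2, ADAMTS3 and ADAMTS14 lay between -0.30 and -0.04 and were not called. The calls of PLAU, AREG, VCAN, HBEGF and NRG1 by the listed probe each held under 6 to 8 of 17 other settings, and those of A2M, PCSK6, TSPAN10 and TSPAN33 under 14 to 16.

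**Figure D4:**
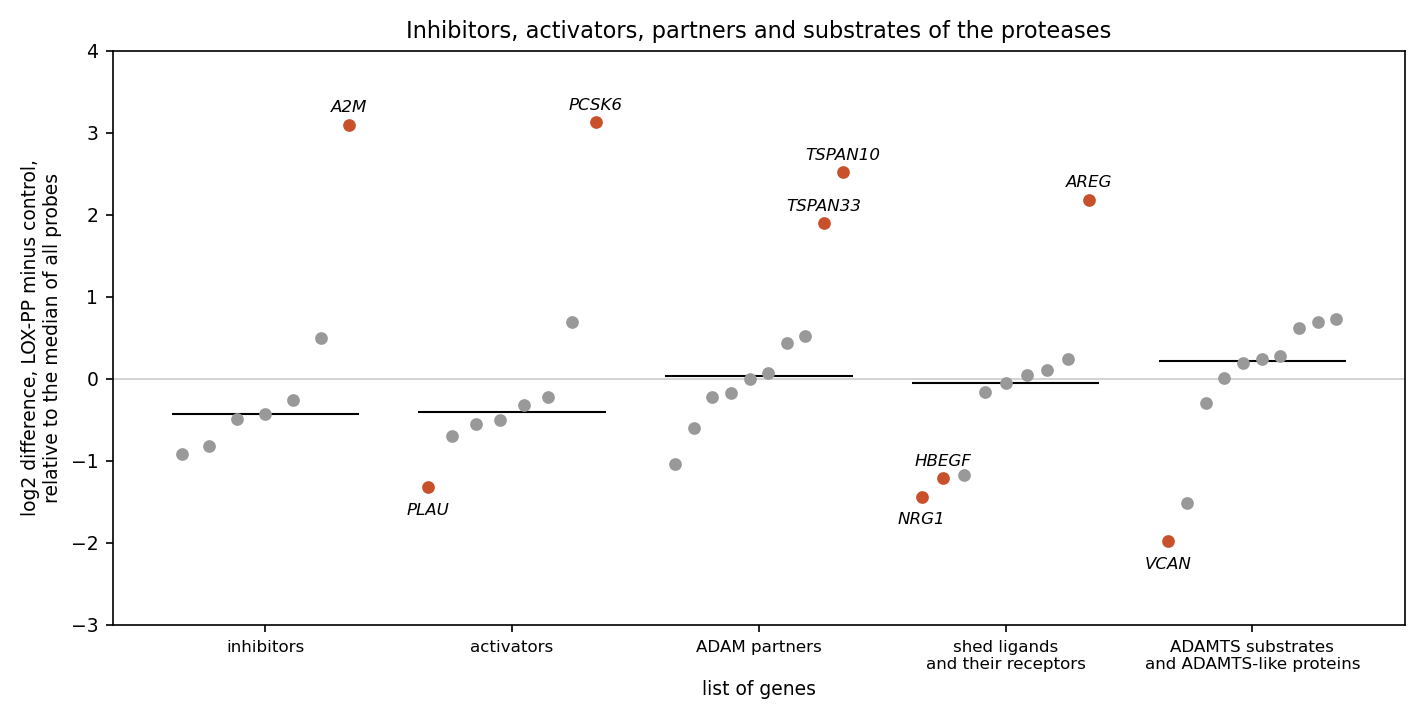
Log2 difference LOX-PP minus control relative to the median of all tested probes (y axis) of the 44 tested genes of 5 lists (x axis), 1 point a gene, with the list's median as a line; orange points with names were called and grey ones were not. The 5 genes called higher and 4 called lower are spread over all 5 lists.

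Markers of cell types were read beside these results. All 10 Ewing sarcoma markers were tested, with NPY lower at -1.88 (adjusted p = 0.0220) and the other 9 not called. The summed level of the 5 tested fibroblast markers was 5.31 to 5.50 on control arrays against 3.53 to 3.998 on LOX-PP arrays, with COL1A2 (-3.04, adjusted p = 0.0012) and LUM (-2.42, adjusted p = 0.0191) lower. The sum was carried by COL1A2, whose mean went from 5.16 to 2.25, and LUM was well above background on 2 control arrays and 1 LOX-PP array. COL1A1 went the other way at 0.53 (adjusted p = 0.175) without overlap of the groups, and COL3A1 (-1.49) and DCN (-0.80) were not called either. The summed level of the 2 tested epithelial markers was -2.47 to -2.35 against 1.98 to 2.35, carried by KRT14 (5.13), while CDH1 and KRT5 were well above background on no array. The 3 endothelial and 4 leukocyte markers were tested and not called, with summed levels of -2.19 to -1.79 against -1.74 to -0.96 and of -0.90 to -0.51 against -0.90 to 0.14. The part of these markers' cells or programs in the changes of MMP10, MMP9, ADAM19, ADAM23 and ADAMTS13 was not tested.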

How the data were processed

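RNA of 3 A673/TR/empty and 3 A673/TR/LOX-PP cultures was hybridised in 1 colour. The authors deposited, per array, the spot intensity written by Agilent Feature Extraction 10.7 (background-subtracted, with flags for outliers and for spots well above background), and a table of processed log2 values. Here control and outlier spots were left out, the log2 intensity was averaged per probe, and the array's 75th percentile was subtracted. Probes that 3 or more arrays had well above background (32647) were fitted with limma 3.58.1 (R 4.3.3, moderated, two-sided, unpaired) and adjusted by Benjamini-Hochberg over all of them. P-values measure the spread between 3 arrays per line, and the number of arrays limits the precision. Probes were named by accession through RefSeq GRCh38.p14 (28174 of 50599). The deposited log2 table differed by at most 0.02 from these values on 50537 probes, up to a constant per probe.

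Named genes are every member with a called probe, and in each role group the 2 brightest and the 2 with the largest difference, MMP1, MMP2, MMP9, MMP14, ADAM10, ADAM17, ADAMTS1, TIMP1, TIMP2, TIMP3, RECK, LOX and called genes of the 5 lists of inhibitors, activators, ADAM partners, shed ligands and ADAMTS substrates. The genes and lists were chosen with earlier results of these data known. Steps were tested on simulated data. The alternatives were 16 planned settings and a common floor under all arrays, added after seeing the data.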

Additional observations from a re-analysis of the deposited data

How the results depend on the processing

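All 6 member calls kept their direction under the 17 alternatives, wherever they were tested. The 17 are not separate checks. LOX-PP replicate 1 was alone on its slide, so the slide as a block repeats the fit without that array (2062 probes called in both). The authors' processed values equal those used here up to a constant per probe, so their fit could hardly differ (1841 called, against 1849). MMP10 and ADAMTS13 probe 1 were called under all 17, both ADAM23 probes under 16 (they were not tested when all 6 arrays had to be above background, which left 1 probe called higher), MMP9 under 15 and ADAM19 under 7. ADAM19 was also lost with no filter, the replicate block and the methods' t-test. Its loss with the slide as a block is the same as that without LOX-PP replicate 1. Leaving out 1 array gave 1 to 3 member probes called lower, with 1 without control replicate 1 or control replicate 2. Over all probes, 516 were called with no filter, 566 with the methods' t-test and 407 to 2062 without 1 array (407 and 444 without control replicate 1 or 2, 892 and 1037 without LOX-PP replicate 2 or 3). List genes called numbered 2 with no filter, 0 with the methods' t-test (12 at an unadjusted p under 0.05), and 1 (without control replicate 1) to 6 without 1 array, with 4 without control replicate 2 or LOX-PP replicate 2 or 3 and 5 without control replicate 3.

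Replicate numbers did not pair the arrays (correlations of deviations 0.27, -0.39 and 0.23). With the replicate block 860 probes were called, among them 5 of the members.

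Signs turned only for genes that were not called. The relative difference was 0.22 for ADAMTS10, -0.0058 for ADAMTS19, -0.0018 for ADAMTS7 and 0.018 for MMP28 after quantile normalization, and -0.079 for ADAMTS12 with a common floor. With no filter it was -0.071 for MMP15 and -0.088 for MMP2. With the slide as a block it was -0.018 for MMP17, -0.087 for MMP2 and 0.20 for MMP28. Asking for all 6 arrays above background gave 0.018 for ADAMTS10 and 0.036 for MMP28, and asking for 1 whole group gave 0.014 for MMP28. Without 1 array the range was -0.49 to 0.48 for ADAMTS10, -0.0085 to 0.19 for MMP15, -0.018 to 0.98 for MMP17, -0.087 to 0.30 for MMP2, -0.19 to 0.061 for MMP25 and -0.14 to 0.20 for MMP28. The cause of these turns was not tested, and most lie near 0.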
